A study of Homo sapiens with 4 samples.

Results

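The genes described here are the integrin chains and ligands of the RGD-binding and fibronectin-binding system: the alpha chains ITGAV, ITGA4, ITGA5 and ITGA8, the beta chains ITGB3, ITGB5 and ITGB8, and the ligands FN1, VTN and SPP1. They were chosen by name as a gene family, with earlier results of these data known, and are 10 of the 57905 genes in the count tables. Poly(A)-selected RNA was sequenced from U87MG, an established human glioblastoma cell line labelled as wild type and kept at passages 8 to 10. The 2 control libraries came from untreated cells and the 2 chaetocin libraries from cells given 50 nM chaetocin, a fungal metabolite that inhibits histone methyltransferases, in DMSO for 24 h. The labels describe the control cells as untreated and name no DMSO for them, so chaetocin and its solvent cannot be told apart. The labels do not say that the replicates came from separate cultures, so p-values measure only the spread between these libraries, which may be technical.

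Integrins are cell surface receptors made of an alpha and a beta chain that hold cells to the matrix around them and pass signals in both directions. One family of them, which holds all alphaV integrins, alpha5beta1 and alpha8beta1, recognizes the tripeptide Arg-Gly-Asp (RGD) in ligands such as fibronectin, vitronectin and osteopontin. The alpha4 integrins instead bind a Leu-Asp-Val sequence in an alternatively spliced segment of fibronectin, and VCAM1 on other cells. In glioblastoma, alphaV and alpha5 integrins are studied for their parts in adhesion, invasion and vessel growth.

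The binding sites that define the ligands are shown first, since they are what the receptors listed above recognize. Each line gives 51 coding bases, 5′ to 3′ on the coding strand, from the GENCODE release 29 annotation and transcripts on GRCh38, with the codons of the binding tripeptide in capitals. The FN1 RGD is encoded at codon 1615 in exon 30, within chr2:215384042-215384092 on the minus strand, and the Leu-Asp-Val at codon 2102 in exon 40, within chr2:215372290-215372340. The SPP1 RGD is encoded at codon 159 in exon 6, within chr4:87981712-87981762 on the plus strand. The VTN RGD is encoded at codon 64, and its window joins exons 2 and 3 across an intron within chr17:28369817-28369942 on the minus strand.
FN1 Arg-Gly-Asp: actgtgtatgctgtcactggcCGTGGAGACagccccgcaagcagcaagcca
FN1 Leu-Asp-Val: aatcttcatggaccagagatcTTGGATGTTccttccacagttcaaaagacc
SPP1 Arg-Gly-Asp: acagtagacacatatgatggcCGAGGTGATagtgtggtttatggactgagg
VTN Arg-Gly-Asp: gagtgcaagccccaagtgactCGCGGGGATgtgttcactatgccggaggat
The 3 ligands spell the same tripeptide in different bases, and each coding sequence holds 1 RGD. Gene counts carry no exon information, so the share of FN1 transcripts that include the Leu-Asp-Val segment was not measured.

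Totals ran from 21241984 to 32590479 counts per library, and 16416 genes had enough counts to be tested. Replicates differed by far more than counting noise (chi-square per degree of freedom 19.4 between the controls and 53.2 between the chaetocin libraries), so none was a repeat deposit. Of 10 markers of glioma and mesenchymal cells, SOX2, S100B and AQP4 were at 0 in both controls, while VIM had 65218 to 68248 counts and CD44 64744 to 71275 counts there. Their summed level was 6246 to 7485 CPM (counts scaled by normalized library size) in control and 2541 to 4625 CPM in chaetocin libraries, and 1 of 7 tested, CHI3L1, fell. The 12 leukocyte markers summed to 20.6 to 20.7 CPM in control and 49.1 to 58.1 CPM in chaetocin libraries, and 3 of 6 tested (PTPRC, which entered the test only through the chaetocin libraries, CD53 and LCP1) were called higher, while CD3E and MS4A1 were at 0 in all libraries. Endothelial markers (5 of 6 found) summed to 6.40 to 6.47 CPM and 7.91 to 8.50 CPM, platelet markers to 1.11 to 1.36 CPM and 0.781 to 1.55 CPM, and epithelial and hepatocyte markers to 0.974 to 1.02 CPM and 2.16 to 2.87 CPM. The part of these markers in the results was not tested, and in bulk RNA fewer cells carrying a transcript and less transcript per cell cannot be told apart.

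Across the family, the ligand FN1 and the receptor chains ITGA5 and ITGAV had lower levels in both chaetocin libraries than in either control, while the ligand SPP1 had a higher level in both. None of the 8 tested genes passed an adjusted p of 0.05 in the edgeR quasi-likelihood test across all genes, where 1.11% of tested genes were called higher and 0.743% lower. At an unadjusted p under 0.05 the count was 4 lower (ITGA5, ITGAV, FN1, ITGB8) and 1 higher (SPP1), against 9.43% of all tested genes lower and 10.9% higher. DESeq2 called 3 lower (ITGA5, ITGAV, FN1) and 0 higher at an adjusted p of 0.05, against 2.81% and 2.72% of all tested genes. The groups did not overlap for 6 of the 8, with 5 lower and 1 higher, where 26% of all tested genes were lower without overlap and 26.8% higher. The median log2 fold change of the 8 was −0.45, and that of all genes tested was 0.01. ITGA8 and VTN had too few counts to be tested.

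**Figure D1:**
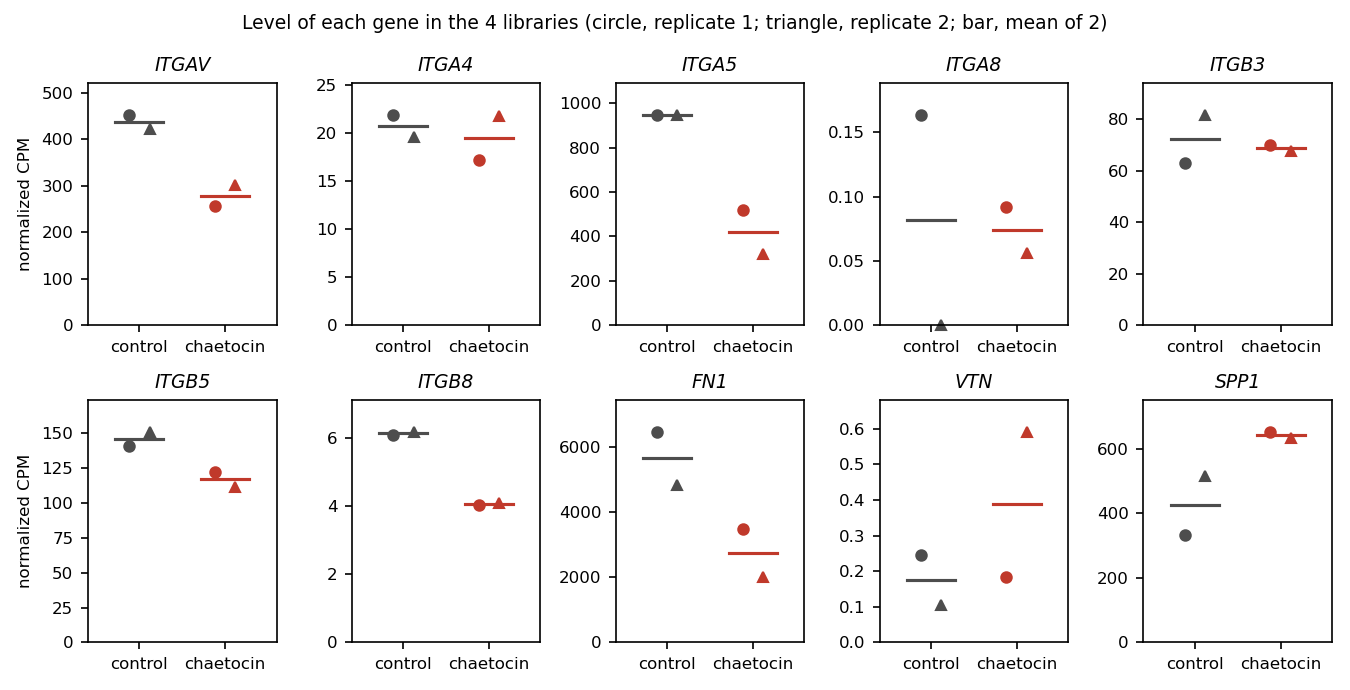
Normalized CPM of the 10 genes (vertical axes, each from 0 and scaled to its gene) in the 2 control and 2 chaetocin libraries, with circles for replicate 1, triangles for replicate 2 and bars for the group means. FN1, ITGA5, ITGAV, ITGB5 and ITGB8 lie lower in both chaetocin libraries and SPP1 higher, while ITGA4 and ITGB3 overlap and ITGA8 and VTN sit at the bottom of the counting range.

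FN1 (ENSG00000115414, chr2:215360440-215436172 on the minus strand, GRCh38) encodes fibronectin, the matrix protein that alpha5beta1, alphaV and alpha4 integrins all bind. Its level was 6473 and 4835 CPM in the controls and 3496 and 2023 CPM in the chaetocin libraries. Both chaetocin libraries lay below both controls, and the replicates within each group also stood well apart. It took 0.609% and 0.458% of all counts in the controls against 0.358% and 0.221% with chaetocin. The means were 5654 ± 1158 (SD, n = 2) and 2759 ± 1042 CPM, a chaetocin level of 48.8% of control. The edgeR log2 fold change was −1.03 (SE 0.30, 95% interval −1.73 to −0.34, adjusted p = 0.114), a difference that did not pass the test. With a library left out it passed only without chaetocin replicate 1, at −1.48 with an adjusted p of 0.00061. The adjusted p was 0.198 without control replicate 1, 0.133 without control replicate 2 and 0.0678 without chaetocin replicate 2. DESeq2 gave −1.04 with an adjusted p of 0.00287. A fit that leaves out a library has a single library in that group, which is assumed to vary like the other group, here and below.

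SPP1 (ENSG00000118785, chr4:87975650-87983426 on the plus strand) encodes osteopontin, a secreted phosphoprotein that binds alphaV integrins and, after cleavage, alpha4 and alpha9 integrins. Its level was 332 and 516 CPM in the controls and 652 and 634 CPM in the chaetocin libraries. Both chaetocin libraries lay above both controls and close to each other, whereas the controls were spread. The means were 424 ± 130.1 (SD, n = 2) and 643 ± 12.9 CPM, a ratio of 1.52. The edgeR log2 fold change was 0.60 (SE 0.23, 95% interval 0.08 to 1.12, adjusted p = 0.19). The gap between the controls was itself 0.64 on the log2 scale, as large as the difference between the groups. SPP1 was the only tested gene of the 10 with a log2 fold change above 0.

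The proportion of the 2 expressed ligands was described without a test. Within each library, where scaling cancels, the counts of FN1 were 19.5 and 9.37 times those of SPP1 in the controls. With chaetocin they were 5.36 and 3.19 times. The groups did not overlap, but the controls differed from each other by a larger factor than the nearest control and chaetocin libraries did. Per kilobase of exonic length, FN1 was at 374 and 279 CPM and SPP1 at 143 and 222 CPM in the controls. With chaetocin FN1 was at 202 and 117 CPM per kb and SPP1 at 281 and 273 CPM per kb. The order of the ligands by level per length was therefore opposite in the groups, in each library. With the longest coding transcript as the length the order was the same, but chaetocin replicate 1 was near a tie. There FN1 was at 393 and SPP1 at 412 CPM per kb, so the order in that library depends on the length used.

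VTN (ENSG00000109072, chr17:28367276-28373091 on the minus strand) encodes vitronectin, a plasma and matrix protein made mainly by the liver and a ligand of alphaVbeta3 and alphaVbeta5. It had 6 and 3 counts in the controls and 4 and 21 counts in the chaetocin libraries. Only chaetocin replicate 2 held more than a handful of reads, and the groups overlapped. AC002094.3, a same-strand gene with 0 counts in all libraries, shares 13.6% of its exonic bases, and SARM1 lies across it on the opposite strand with 0 shared exonic bases.

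The start regions of the family were searched for 5 short motifs chosen with the values known, and those of FN1 and SPP1, the expressed ligands, and of ITGA5, the member with the lowest p, are shown. Each line gives 280 bases, 250 before the RefSeq start and 30 from it, 5′ to 3′ on the gene's strand in GRCh38.p14, with matches in capitals. The windows are chr2:215436039-215436318 on the minus strand for FN1, chr12:54419237-54419516 on the minus strand for ITGA5 and chr4:87975464-87975743 on the plus strand for SPP1.
FN1 start region: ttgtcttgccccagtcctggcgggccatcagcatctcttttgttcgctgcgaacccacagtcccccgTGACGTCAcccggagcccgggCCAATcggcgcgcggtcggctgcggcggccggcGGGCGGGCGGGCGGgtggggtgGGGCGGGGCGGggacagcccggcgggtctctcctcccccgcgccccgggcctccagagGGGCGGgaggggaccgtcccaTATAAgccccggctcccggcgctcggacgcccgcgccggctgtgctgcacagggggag
ITGA5 start region: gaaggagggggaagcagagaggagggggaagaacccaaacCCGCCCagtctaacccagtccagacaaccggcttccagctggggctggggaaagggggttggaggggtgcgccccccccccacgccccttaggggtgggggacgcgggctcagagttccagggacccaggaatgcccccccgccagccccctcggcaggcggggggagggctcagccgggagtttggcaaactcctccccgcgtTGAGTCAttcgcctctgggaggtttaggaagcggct
SPP1 start region: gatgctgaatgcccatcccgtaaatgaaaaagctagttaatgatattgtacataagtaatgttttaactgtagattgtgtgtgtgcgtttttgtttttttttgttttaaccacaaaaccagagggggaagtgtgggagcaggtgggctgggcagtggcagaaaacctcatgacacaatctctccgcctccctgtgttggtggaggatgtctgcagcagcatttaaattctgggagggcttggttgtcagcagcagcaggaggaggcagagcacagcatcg
Both strands were searched, and overlapping matches of the same motif were counted. FN1 held 1 cyclic AMP response element TGACGTCA, found in 1.85% of 35116 start regions of this length, 1 CCAAT (33.6%), 1 TATAA (19.9%) and 6 GC boxes GGGCGG (44.1%), some of which overlap each other. ITGA5 held 1 GC box and, ending on the start base, 1 AP-1 element matching TGANTCA (7.35%). SPP1 held none of the 5. Of the regions not shown, ITGA8 held 4 GC boxes, ITGB5 2, ITGB8 2 and 1 CCAAT, VTN 1 CCAAT, and ITGAV and ITGA4 none of the 5. A match describes these letters only, and nothing here measured whether a factor was bound. In the table of start regions 9 of the 10 genes matched, all but ITGB3.

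ITGA5 (ENSG00000161638, chr12:54395261-54419460 on the minus strand) encodes alpha5, which pairs with beta1 alone to form the main fibronectin receptor. Its level was 949 and 946 CPM in the controls and 519 and 322 CPM in the chaetocin libraries. The controls were almost equal, both chaetocin libraries lay well below them, and the chaetocin libraries differed by 0.69 on the log2 scale. The means were 948 ± 1.79 (SD, n = 2) and 420.3 ± 139 CPM, or 44.3% of control. Its log2 fold change of −1.17 (SE 0.24, 95% interval −1.72 to −0.62) had an edgeR adjusted p of 0.0514, just outside the threshold. The adjusted p was 0.0134 without control replicate 1, 0.0396 without control replicate 2, 2.98e-05 without chaetocin replicate 1 and 0.00686 without chaetocin replicate 2. DESeq2 gave −1.18 with an adjusted p of 5.69e-05. So ITGA5 stood on either side of the threshold by setting, always at a lower level with chaetocin.

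ITGAV (ENSG00000138448, chr2:186590065-186680901 on the plus strand) encodes alphaV, the shared alpha chain of the vitronectin and osteopontin receptors, which pairs with beta1, beta3, beta5, beta6 and beta8. Its level was 454 and 422 CPM in the controls and 256 and 302 CPM in the chaetocin libraries. The groups did not overlap, and the replicates were close in both. The means were 438 ± 22.5 (SD, n = 2) and 279 ± 32 CPM, or 63.8% of control. The edgeR log2 fold change was −0.65 (SE 0.17, 95% interval −1.03 to −0.27, adjusted p = 0.0849). The adjusted p was 0.441 without control replicate 1, 0.326 without control replicate 2, 0.0208 without chaetocin replicate 1 and 0.00822 without chaetocin replicate 2. It was 0.0166 in DESeq2. An antisense gene, AC017101.1, shares 2.47% of its exonic bases and had 0 to 5 counts.

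ITGA4 (ENSG00000115232, chr2:181457202-181536187 on the plus strand) encodes alpha4, the chain of lymphocyte and neural crest integrins that binds VCAM1 and the Leu-Asp-Val site of fibronectin. Its level was 21.9 and 19.6 CPM in the controls and 17.2 and 21.8 CPM in the chaetocin libraries. The groups overlapped, and no difference was detectable (log2 fold change −0.09, 95% interval −0.51 to 0.34, edgeR adjusted p = 0.84). ITGA8 (ENSG00000077943, chr10:15513949-15720125 on the minus strand), the RGD-binding partner of beta1 in kidney and smooth muscle, had 4, 0, 2 and 2 counts in control replicates 1 and 2 and chaetocin replicates 1 and 2. These values are at the limit of counting and allow no comparison.

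The alpha5 and alphaV chains differed in how they stood to their shared partner. Counts of ITGA5 were 0.703 and 0.731 times those of ITGB1 in the control libraries and 0.440 and 0.447 times with chaetocin. This ratio was close between replicates and apart between groups. Counts of ITGAV were 0.336 and 0.326 times those of ITGB1 in the controls and 0.217 and 0.420 times with chaetocin, so there the chaetocin replicates lay on both sides of the controls. Such ratios compare the same pair of genes across libraries and say nothing of the number of receptors.

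**Figure D2:**
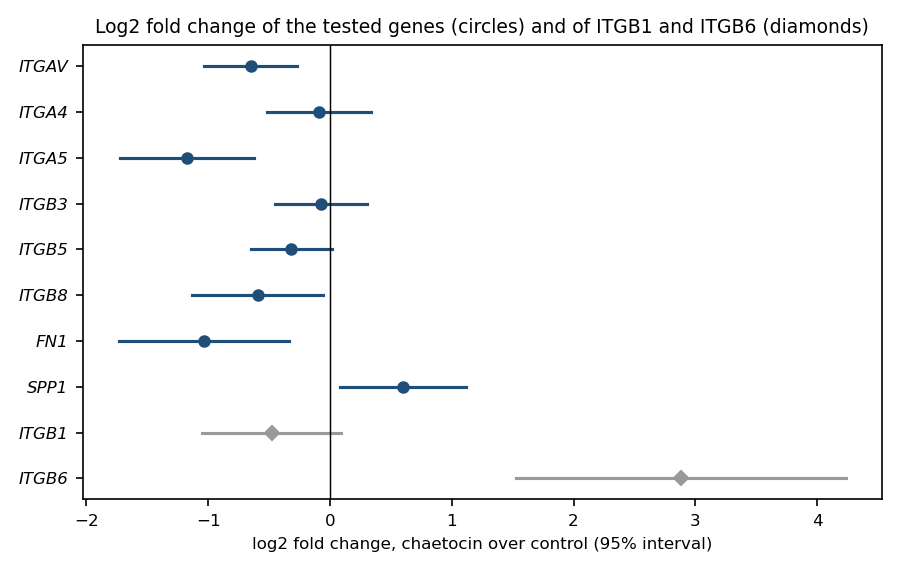
Log2 fold change of chaetocin over control (horizontal axis) from the edgeR fit for the 8 tested genes (circles) and ITGB1 and ITGB6 (diamonds), with bars for the 95% interval. The intervals of ITGA5, ITGAV, FN1 and ITGB8 lie below 0, that of SPP1 above 0, and those of ITGA4, ITGB3 and ITGB5 include 0.

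ITGB5 (ENSG00000082781, chr3:124761948-124901418 on the minus strand) encodes beta5, the alphaV partner in a vitronectin receptor. Its level was 141 and 151 CPM in the controls and 123 and 112 CPM in the chaetocin libraries. The groups did not overlap, and the difference was small beside those of ITGA5 and FN1. The means were 146 ± 7.43 (SD, n = 2) and 117 ± 7.55 CPM, and the edgeR log2 fold change was −0.32 (SE 0.14, 95% interval −0.65 to 0.01, adjusted p = 0.264).

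ITGB3 (ENSG00000259207, chr17:47253846-47311816 on the plus strand) encodes beta3, which forms alphaVbeta3 and, in platelets, the fibrinogen receptor with ITGA2B. Its level was 62.9 and 81.9 CPM in the controls and 69.9 and 67.8 CPM in the chaetocin libraries. Both chaetocin libraries lay between the controls. The edgeR log2 fold change was −0.07 (SE 0.17, 95% interval −0.45 to 0.31, adjusted p = 0.851), so a difference was not detectable. In GENCODE release 29 the gene AC068234.1 shares 51.6% of the exonic bases of ITGB3 on the same strand and had 0 counts in all 4 libraries, and how reads in shared bases were counted is not given in the sources used here. The level of ITGB3 is uncertain to that extent.

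ITGB8 (ENSG00000105855, chr7:20330702-20415754 on the plus strand) encodes beta8, which pairs with alphaV and binds the RGD of latent transforming growth factor beta. Its level was 6.11 and 6.19 CPM in the controls and 4.04 and 4.11 CPM in the chaetocin libraries, from 88 to 178 counts. The replicates were nearly equal in both groups and the groups did not overlap. The edgeR log2 fold change was −0.59 (SE 0.23, 95% interval −1.13 to −0.06, adjusted p = 0.207).

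Among the beta chains of the list, all of which pair with alphaV, ITGB5 held 59.7% and 55.2% of their summed level per kb in the controls and 54.0% and 52.5% with chaetocin. ITGB3 held 39.2% and 43.8% in the controls and 45.2% and 46.7% with chaetocin. The remaining share, 1.10% and 0.962% in the controls and 0.758% and 0.820% with chaetocin, was ITGB8. These shares, and the order of ITGB3 and ITGB5, rest on the uncertain level of ITGB3 described above. They also depend on the length used. With the longest coding transcript, ITGB3 held 32.4% and 36.7% in the controls and 38.1% and 39.5% with chaetocin. The groups did not overlap for any of the 3 chains. For ITGB5 and ITGB3 the controls differed from each other by more than control replicate 2 differed from the nearer chaetocin library.

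ITGB1 and ITGB6, the other beta chains that pair with alphaV, were examined beside them. ITGB1, the common partner of alpha4, alpha5, alpha8 and alphaV, was at 1349 and 1295 CPM in the controls and 1180 and 719 CPM in the chaetocin libraries. Both chaetocin libraries were below the controls, with most of the difference in replicate 2, and the log2 fold change was −0.48 (95% interval −1.05 to 0.10, edgeR adjusted p = 0.327). ITGB6, an epithelial beta chain that binds latent transforming growth factor beta, had 4 and 3 counts in the controls and 23 and 34 counts with chaetocin. It passed the filter on low counts only through the chaetocin libraries, so its fitted log2 fold change of 2.88 (SE 0.59, 95% interval 1.53 to 4.23, edgeR adjusted p = 0.0514, DESeq2 adjusted p = 0.04) is given as a description. Without chaetocin replicate 1, edgeR called ITGB1 lower (−0.88, adjusted p = 0.00223) and ITGB6 higher (2.82, adjusted p = 0.0362). In the other leave-one-out fits the adjusted p ran from 0.551 to 0.686 for ITGB1 and from 0.0578 to 0.168 for ITGB6, so neither was called. The epithelial and hepatocyte markers, given above, were also at a higher summed level in the chaetocin libraries. Of these markers 2 were tested and 0 were called, and KRT5 and TTR were at 0 in all libraries.

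Levels per exonic length compare genes only roughly, since the length joins the exons of all transcripts of a gene. By this measure the order in the controls was FN1, SPP1, ITGA5, ITGAV, ITGB5, ITGB3, ITGA4, ITGB8 and VTN. ITGA5 was at 125 CPM per kb in both controls and at 68.5 and 42.5 CPM per kb with chaetocin. ITGAV was at 55.2 and 51.4 CPM per kb and then 31.2 and 36.7 CPM per kb. ITGB5 was at 21.8 and 23.4 CPM per kb in the controls and 19.0 and 17.4 CPM per kb with chaetocin, and ITGB3 at 14.3 and 18.6 CPM per kb and then 15.9 and 15.4 CPM per kb. The values of ITGA5 and ITGAV lay above those of ITGB5 and ITGB8 in every library, while the place of ITGB3 in the order depends on how reads in its shared bases were counted. ITGA4 lay between 2.18 and 2.77 CPM per kb, ITGB8 between 0.267 and 0.409 and VTN between 0.043 and 0.244. No neighbours in this order overlapped within the controls or within the chaetocin libraries. With the length of the longest coding transcript, the controls of SPP1 (210.1 and 327 CPM per kb) overlapped those of ITGA5 (214 and 213), so these neighbours did not differ beyond their spread.

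**Figure D3:**
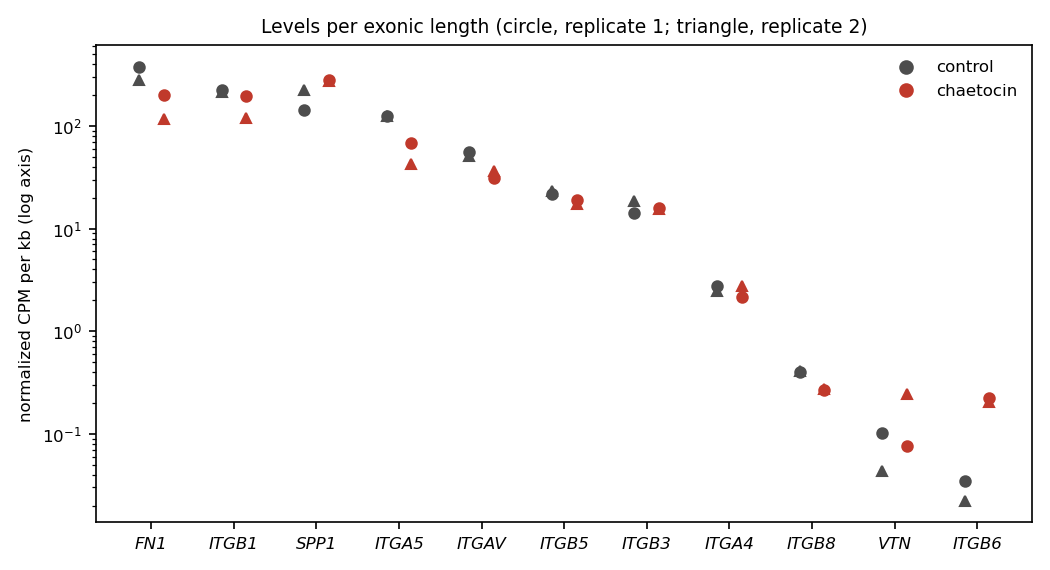
Normalized CPM per kb of exonic length on a log axis for the tested genes, VTN, ITGB1 and ITGB6, ordered by their control mean, with circles for replicate 1 and triangles for replicate 2. FN1 lies above SPP1 in both controls (279 against 222 in replicate 2) and below it in both chaetocin libraries (117 against 273 in replicate 2).

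The log2 fold changes were next compared over the fits that leave out a library. The log2 fold change of ITGA5 ran from −1.56 to −0.88 when each library was left out in turn. That of FN1 ran from −1.48 to −0.70 and that of ITGAV from −0.78 to −0.53. ITGB8 and ITGB5 moved least, from −0.62 to −0.58 and from −0.38 to −0.26. SPP1 stayed above 0, from 0.30 to 0.94. ITGA4 and ITGB3 lay on both sides of 0, from −0.28 to 0.07 and from −0.26 to 0.12.

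**Figure D4:**
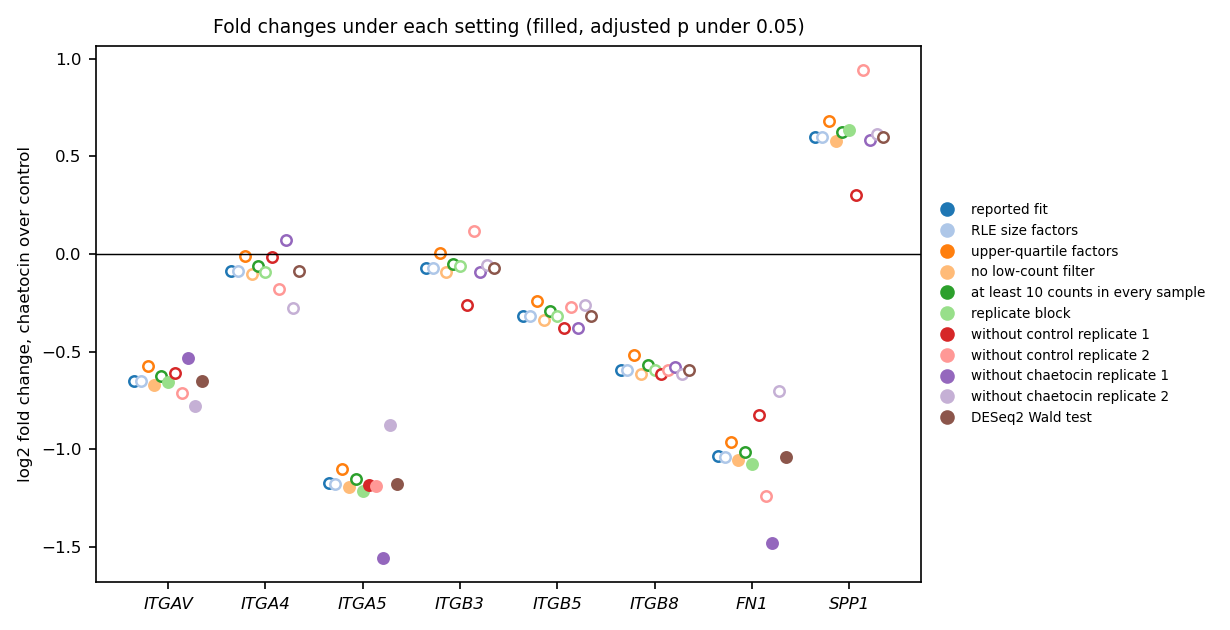
Log2 fold change of chaetocin over control (vertical axis) for the 8 tested genes, with a point for each setting of the fit, named in the legend, filled where the adjusted p was under 0.05. ITGA5 is filled in all 4 fits that leave out a library, ITGAV and FN1 in some, and SPP1 is open when any library is left out.

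The rest of the integrin system was described by 3 lists chosen by name. The list of 20 other integrin chains includes ITGBL1, a protein related to beta chains that is not itself a receptor chain. Of the 20, 17 were tested, 1 was called higher and 4 lower, against 1.11% and 0.743% of all tested genes, with a median log2 fold change of −0.30. ITGA2, ITGA10 and ITGA11, alpha chains of collagen receptors, fell, while ITGA1, the other such chain, did not pass the test (log2 fold change −0.40, edgeR adjusted p = 0.271). Another that fell was the laminin receptor chain ITGA3, which, like ITGA1, is named with its values known. The laminin receptor chains ITGA6 and ITGA7 did not pass the test (log2 fold change 0.78 and −0.45, edgeR adjusted p = 0.191 and 0.177). ITGA2 went from 249.98 ± 35.6 (SD, n = 2) to 76.6 ± 26.9 CPM (log2 fold change −1.71, edgeR adjusted p = 0.0279). ITGA11 went from 19.4 ± 5.40 to 5.54 ± 0.156 CPM (−1.80, edgeR adjusted p = 0.0266) and ITGA10 from 7.41 ± 0.397 to 2.02 ± 0.712 CPM (−1.90, edgeR adjusted p = 0.0312). ITGA3 went from 2693 ± 75.9 to 1251 ± 204 CPM (−1.11, edgeR adjusted p = 0.0437), a call lost without control replicate 2 (adjusted p = 0.145) and when each sample had to hold 10 counts (adjusted p = 0.0555). ITGAM, the alpha chain of a leukocyte integrin, had 0 and 1 counts in the controls and 24 and 29 counts with chaetocin (edgeR adjusted p = 0.0341). It entered the test only through the chaetocin libraries and was not in the fit that asked for 10 counts in every sample, so its call is a description. Among leukocyte markers, given above, the summed level was also higher with chaetocin, and its part in this was not tested. Between 1 and 3 chains were called higher and between 3 and 7 lower when each library was left out, the 3 higher and 7 lower without chaetocin replicate 1. Calls over all tested genes also differed between these fits, from 182 higher and 122 lower with all 4 libraries to 1332 higher and 1673 lower without chaetocin replicate 1, so the shares above do not apply to them.

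Of 31 other ligands with an RGD site or bound by alpha4 or alpha9 integrins, 21 were tested. EDIL3, a secreted RGD protein that binds alphaV integrins, was the only gene of these that passed the test. It fell from 190.0 ± 11.7 (SD, n = 2) to 109 ± 10.7 CPM (log2 fold change −0.80, edgeR adjusted p = 0.0432). This call was lost without control replicate 1 (adjusted p = 0.0993) and without control replicate 2 (adjusted p = 0.171), and when each sample had to hold 10 counts (adjusted p = 0.0536). None of the ligands was called higher by edgeR or DESeq2, while DESeq2 called 3 lower, and at an unadjusted p under 0.05 edgeR had 3 higher and 6 lower. Of the 3 higher, MADCAM1 had 7 and 6 counts in the controls and 17 and 19 counts with chaetocin. It entered the test only through the chaetocin libraries, so its place in that count is a description. Over all tested genes DESeq2 called 2.81% lower, and the unadjusted shares were 10.9% higher and 9.43% lower. The median was −0.35, with 13 below 0 and 8 above. From 2 to 5 were called lower when each library was left out, with 5 lower and 2 higher without chaetocin replicate 1, the fit with 1673 lower and 1332 higher over all genes.

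Of 35 adaptors and signalling proteins of adhesion sites, 34 were tested, and TNS1, which links integrin tails to actin, was the only one that passed. It fell from 23.8 ± 0.983 (SD, n = 2) to 11.6 ± 0.251 CPM (log2 fold change −1.03, edgeR adjusted p = 0.0337), a call lost without control replicate 1 (adjusted p = 0.0851). None was called higher by edgeR or DESeq2, DESeq2 called 3 lower, and at an unadjusted p under 0.05 edgeR had 2 higher and 10 lower, beside the same all-gene shares. Of the 2 higher, LIMS2 had 4 and 2 counts in the controls and 16 and 22 counts with chaetocin. It entered the test only through the chaetocin libraries, so its place in that count is a description. Without overlap between groups, 21 were lower and 5 higher, against the 26% and 26.8% of all genes given above, and the median was −0.35. With a library left out, 0 were called lower without control replicate 1, 1 without control replicate 2, 6 without chaetocin replicate 2 and 12 without chaetocin replicate 1. Over all genes the same fits called 97, 151, 940 and 1673 lower.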

How the data were processed

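The data were 4 RNA-seq libraries of U87MG cells, 2 per group. The authors deposited raw counts per gene for each sample. The submitters' processing notes name cutadapt, TopHat, TopHat2, SAMtools and the build GRCh37. The counting tool and its strand setting are not given in the sources used here. Libraries went through 15 PCR cycles without molecular identifiers being named.

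Genes were matched by Ensembl ID to GENCODE release 29 (GRCh38), which gave symbols, positions and lengths for 52338 of the 57905 IDs, and start regions came from RefSeq. Genes were filtered with filterByExpr (minimum count 10), scaled by TMM and tested with the edgeR 4.0.16 robust quasi-likelihood fit in R 4.3.3, with Benjamini-Hochberg adjustment over 16416 genes and a threshold of 0.05. CPM values use TMM library sizes. Levels per kb divide CPM by the exonic length of all transcripts of a gene. The biological coefficient of variation was 16.8%, and 3 counts equalled 0.0844 to 0.138 CPM. Tested on simulated counts for 16416 genes with 200 changed, the fit called 90% of 4-fold and 63% of 2-fold changes, with 6 false among 159 calls. Each simulated gene had the spread typical of its level, without the differences in spread between genes of the real data. These shares may therefore overstate what the fit detects here.

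Members and lists were chosen with earlier results of these data known. All 10 members were named, with ITGB1 and ITGB6, and at most 4 called genes of each list with the smallest p. ITGA1, ITGA3, ITGA6, ITGA7, LIMS2 and MADCAM1 were added after their values were seen. Alternatives were DESeq2 1.42.0, other size factors, other count filters, a replicate block, leaving out each library and, chosen after seeing the data, the longest coding transcript as length. Intervals cover the spread between these libraries.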

Additional observations from a re-analysis of the deposited data

How the results depend on the processing

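Across all genes, 182 were called higher and 122 lower. The counts were 787 and 759 with no filter on low counts, 114 and 80 when each sample had to hold 10 counts, and 447 and 461 with DESeq2. Leaving out each library gave 215 to 1332 higher and 97 to 1673 lower.

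The 10 members had 0 calls. With no filter 1 was called higher and 3 lower, with DESeq2 3 were called lower, and leaving out each library gave 1 to 3 lower and 0 higher. Replicate numbers were shared across the groups in the labels, but nothing says that they mark a shared batch, and with 2 numbers the correlation of same-numbered samples (0.191) does not decide whether they pair. With the replicate block as a term, 1036 genes were called higher and 1053 lower, and of the members 1 higher (SPP1, log2 fold change 0.63) and 3 lower (ITGA5 −1.21, FN1 −1.07, ITGAV −0.65). That fit took more of each gene's variance from all genes together (prior degrees of freedom 41.5, against 6.29 in the reported fit). Its calls rest largely on that shared variance. The block raised the calls of other integrin chains higher to 3, of other ligands to 1 higher and 6 lower, and of adaptors to 2 higher and 10 lower.

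For other integrin chains, 1 higher and 4 lower were reported. The higher count was 3 with upper-quartile scaling, no filter or DESeq2, 0 when every sample had to hold 10 counts, and 1 to 3 leaving out each library, and the lower count was then 3 to 7. For other ligands, 0 higher and 1 lower were reported. With no filter 1 was higher and 4 lower, under the 10-count filter on each sample 0 were lower, with DESeq2 3 were lower, and leaving out each library gave 0 to 2 higher and 2 to 5 lower. For adaptors, 0 higher and 1 lower were reported. With no filter 1 was higher and 6 lower, with DESeq2 3 were lower, and leaving out each library gave 0 to 1 higher and 0 to 12 lower.

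Only ITGA4 and ITGB3 changed sign, ITGA4 to 0.074 without chaetocin replicate 1, and ITGB3 to 0.0060 with upper-quartile scaling and 0.12 without control replicate 2, and leaving out each library gave −0.28 to 0.074 for ITGA4 and −0.26 to 0.12 for ITGB3. The cause was not tested. ITGA8 and VTN had too few counts to be tested, so only their counts are given.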
